A study of Mus musculus with 8 samples.

Results

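The synaptic vesicle release machinery was followed through 47 genes, chosen by their symbols, in hippocampal tissue of adult mice. The 47 are part of 54532 genes listed. Each symbol matched 1 gene, and all 47 reached a mean of 0.5 FPKM (fragment counts scaled by gene length and by library) over the 8 libraries, so that all were among the 14159 genes tested. RNA sequencing had been made from mice heterozygous for Kat6a (Kat6a+/-, 4 libraries) and from wild-type mice (WT, 4 libraries). KAT6A belongs to the MYST histone acetyltransferases, and the title of the study links its deficiency to cognition and to the CA3 field. The labels name no construct for the Kat6a allele, and no strain, sex, treatment or age beyond adult. Nor do they say whether the 8 libraries are 8 animals, so each p-value rests on the spread among libraries, which may be technical in part.

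Synaptic vesicles are filled by transporters, held near the plasma membrane by RAB3 GTPases and the RIM, Munc13, bassoon and piccolo proteins of the active zone, and primed as synaptobrevin on the vesicle pairs with syntaxin and SNAP-25 on the membrane. Calcium entering the terminal binds a synaptotagmin, which together with complexin sets off fusion. Synapsins hold the reserve of vesicles, and clathrin adaptors take vesicle proteins back after release. Excitatory neurons of the adult hippocampus load glutamate mainly through VGLUT1 and use synaptotagmin 1 as their fast calcium sensor.

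Depth was between 16462428 and 27875310 reads per library. Kat6a itself lay between 6.06 and 7.64 FPKM in Kat6a+/- and between 8.55 and 9.71 FPKM in WT, so the libraries matched their labels. Markers of the hippocampal fields were present in both genotypes, with a summed level of 4 CA3 markers between 86.0 and 105 FPKM in Kat6a+/- and between 73.9 and 94.1 FPKM in WT. WT replicate 1 stood apart from the other libraries in several of the 47 genes, and the genes in which it stood farthest apart are given with and without it. Values from tissue cannot tell fewer cells of a type from less RNA per cell.

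The most abundant of the 47 genes were mostly general components of the release machinery, and the rarest were minor paralogs. With a mean of 100 FPKM or more, 13 genes included the complexins Cplx2 (416 FPKM) and Cplx1 (235 FPKM), which clamp and promote fusion, the vesicular glutamate transporter Slc17a7 (317 FPKM), the SNARE genes Snap25 (280.2 FPKM) and Vamp2 (248 FPKM), Rab3a (217 FPKM), and Syt1, Syt11, Syp, Syn1, Syn2, Sv2a and Syngr1. A further 19 genes lay between 10 and 100 FPKM, among them Bsn, Pclo, Rims1 and Unc13a of the active zone. The remaining 15 were under 10 FPKM, and 11 of these under 5 FPKM, with Syt6 (0.958 FPKM) and Syn3 (1.08 FPKM) lowest. Between 45 and 54730 reads per library stood behind each value. The coefficient of variation over the 8 libraries had a median of 6.85% in the 47 genes and 8.25% in all tested genes, and ran from 1.96% for Vamp2 to 67.9% for Cplx3.

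**Figure D1:**
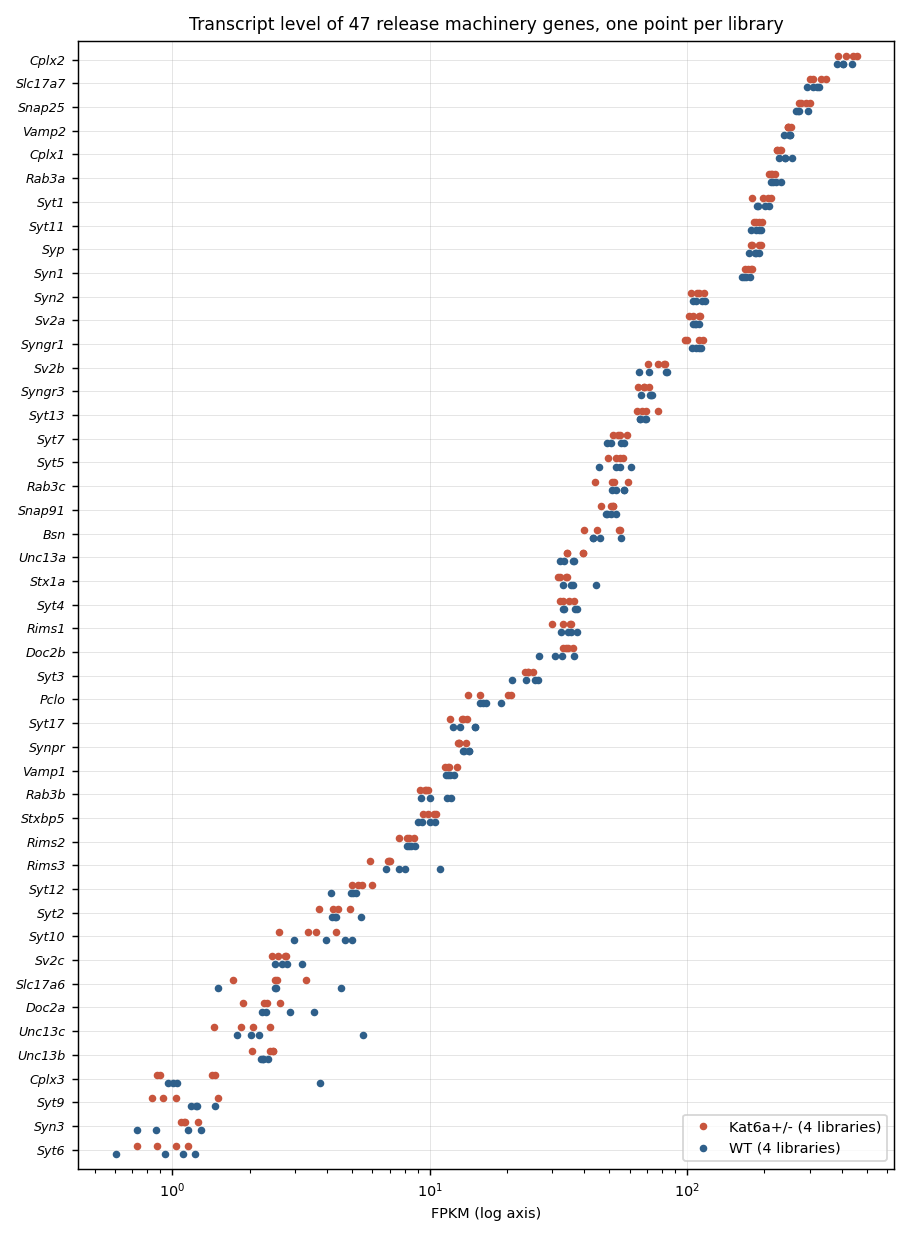
Transcript level in FPKM, on a log axis, of the 47 genes ordered by mean, with 1 point per library (Kat6a+/- above WT in each line). Means run from 0.958 FPKM for Syt6 to 416 FPKM for Cplx2, the genotypes overlap in each of the 47 genes, and single WT points stand far to the right in Cplx3 and Unc13c.

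None of the 47 genes was called different between the genotypes after adjustment for the number of genes tested. In limma, fitted over all 14159 tested genes, 0 of the 47 passed a Benjamini-Hochberg adjusted p of 0.05, and 0% of all tested genes did. At an unadjusted p under 0.05 stood 1 of the 47, Rims3, lower in Kat6a+/-, beside 2.63% of all tested genes lower and 1.78% higher. That count was 0 of the 47 without WT replicate 1 and 5 without WT replicate 4 (Cplx1, Stx1a, Rab3b, Rims3 and Syt10), where all tested genes gave 4.31% and 4.77%. It was also 0 without WT replicate 3, Kat6a+/- replicate 1 or Kat6a+/- replicate 4, where all tested genes gave 4.37%, 5.49% and 3.64%. On the reads recovered from the deposited values, 0 of the 47 passed with edgeR, limma-voom or DESeq2, where 0% of all tested genes passed with edgeR and with limma-voom and 0.0353% with DESeq2. At an unadjusted p under 0.05 edgeR held 3 of them (Rims3, Stx1a and Rab3b, where all tested genes gave 4.35%), limma-voom 2 (Rims3 and Stx1a, 4.24%) and DESeq2 1 (Stx1a, 3.3%). In 0 of the 47 did the 4 Kat6a+/- values all lie above or all below the 4 WT values, beside 1.09% of all tested genes with Kat6a+/- above WT and 1.53% with Kat6a+/- below.

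The differences were small and lay on both sides of 0. On the log2(FPKM + 0.5) scale, 22 genes had a positive and 25 a negative log2 fold change, Kat6a+/- over WT, with a median of -0.0048 beside 0.0010 over all tested genes. The 95% interval of the fold change lay within 1.25-fold in either direction for 34 of the 47 (72.3%), and for 72.3% of all tested genes. It was that narrow in 29 of the 32 genes of 10 FPKM or more and in 5 of the 15 genes under 10 FPKM. In the other 10 of those 15 genes the interval takes in a difference of over 1.25-fold.

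**Figure D2:**
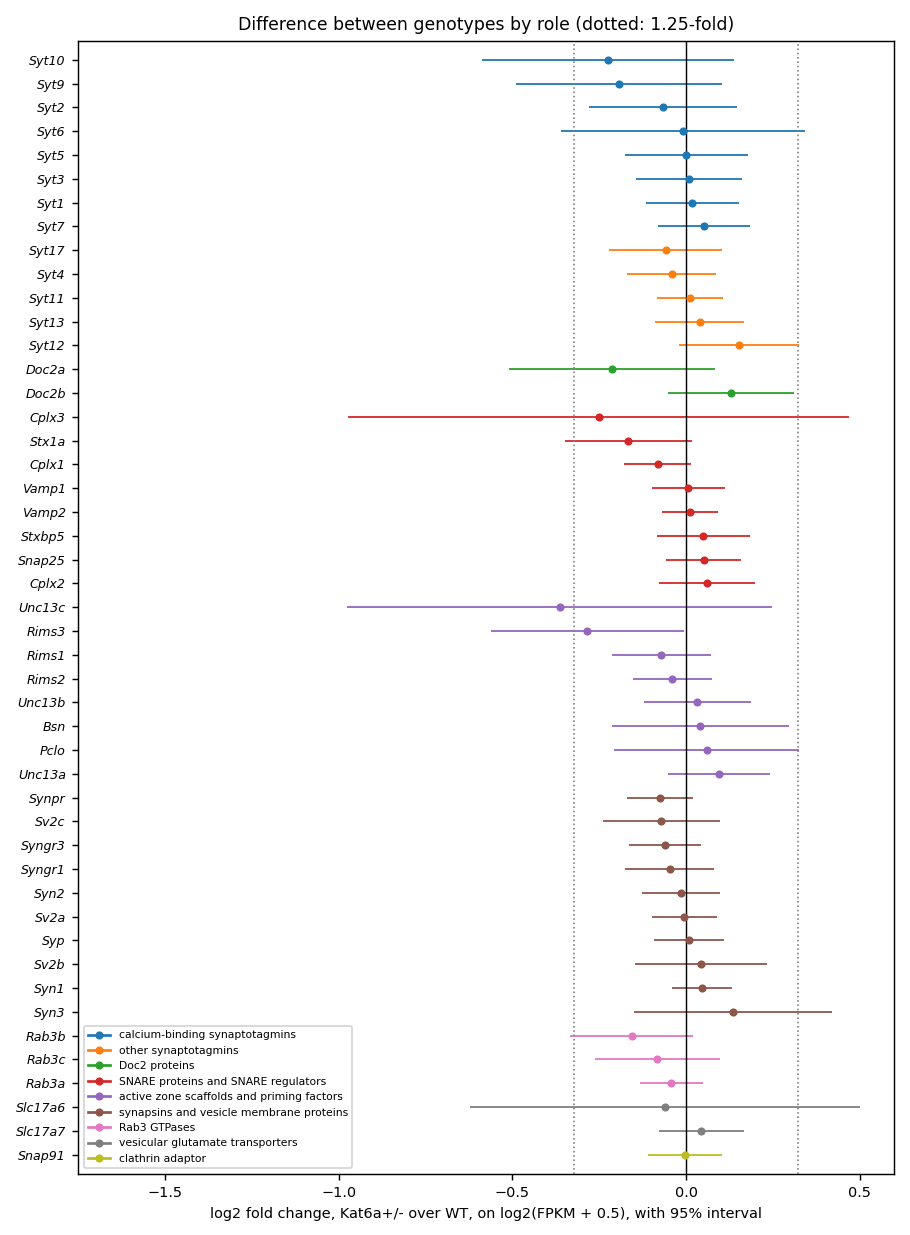
log2 fold change of the 47 genes, Kat6a+/- over WT, on log2(FPKM + 0.5) from limma, with 95% intervals and coloured by role. Of the intervals 34 lie between the dotted lines at 1.25-fold, the widest belong to Cplx3, Unc13c and Slc17a6, and that of Rims3, between -0.56 and -0.01, leaves out 0.

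Promoters are shown for the genes on which these results turn: Rims3 and Stx1a, the 2 of the 47 in the authors' deposited table; Cplx3 and Unc13c, in which 1 WT library stood apart; and Syn1, an abundant and steady gene, for comparison. Each window is the 250 bases before the RefSeq start site in GRCm38.p6, read 5′ to 3′ on the strand of the gene, with motif matches in capitals. Rims3 lies at chr4:120854549-120854798 on the plus strand, Stx1a at chr5:135023232-135023481 on the plus strand, Cplx3 at chr9:57606282-57606531, Unc13c at chr9:73969038-73969287 and Syn1 at chrX:20920919-20921168, these last 3 on the minus strand.
Rims3: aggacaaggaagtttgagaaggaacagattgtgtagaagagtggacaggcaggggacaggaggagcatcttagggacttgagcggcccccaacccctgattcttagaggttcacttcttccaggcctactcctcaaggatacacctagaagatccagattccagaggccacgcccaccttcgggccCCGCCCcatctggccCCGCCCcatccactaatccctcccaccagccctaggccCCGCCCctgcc
Stx1a: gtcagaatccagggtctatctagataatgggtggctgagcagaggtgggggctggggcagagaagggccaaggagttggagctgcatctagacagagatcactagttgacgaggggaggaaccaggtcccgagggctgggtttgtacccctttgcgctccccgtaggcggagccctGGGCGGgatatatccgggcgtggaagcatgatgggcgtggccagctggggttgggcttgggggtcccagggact
Cplx3: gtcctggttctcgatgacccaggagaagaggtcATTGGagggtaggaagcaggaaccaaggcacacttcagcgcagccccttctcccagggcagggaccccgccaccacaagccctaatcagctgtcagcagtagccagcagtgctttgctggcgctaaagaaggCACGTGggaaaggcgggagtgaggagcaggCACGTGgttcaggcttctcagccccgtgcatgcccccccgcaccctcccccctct
Unc13c: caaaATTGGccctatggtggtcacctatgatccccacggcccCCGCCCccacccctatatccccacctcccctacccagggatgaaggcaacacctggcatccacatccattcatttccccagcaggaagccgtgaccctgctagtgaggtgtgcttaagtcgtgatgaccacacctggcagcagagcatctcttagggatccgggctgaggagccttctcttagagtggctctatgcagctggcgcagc
Syn1: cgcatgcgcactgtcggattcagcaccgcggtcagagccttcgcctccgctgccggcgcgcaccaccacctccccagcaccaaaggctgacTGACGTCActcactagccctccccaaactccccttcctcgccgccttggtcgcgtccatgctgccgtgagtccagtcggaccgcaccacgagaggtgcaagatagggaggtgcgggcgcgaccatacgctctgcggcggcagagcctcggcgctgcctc

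The capitals mark matches on either strand, with positions counted back from the start site. Rims3 held GC boxes (GGGCGG) at -64, -49 and -11, and Stx1a held 1 at -74. Cplx3 held a CCAAT box at -217 and the E-box CACGTG at -85 and -55. Unc13c held a CCAAT box at -246 and a GC box at -208, and Syn1 held a cAMP response element (TGACGTCA) at -159. RefSeq windows were found for 34 of the 47 genes, in 45 entries. The GC box stood in 68.9% of the 45 entries beside 32.7% of 32851 mouse promoters of that length. CCAAT stood in 24.4% beside 33.8%, TATAAA in 6.67% beside 12.4%, CACGTG in 11.1% beside 6.02% and TGACGTCA in 2.22% beside 1.55%. The median GC content was 61.2% in the 45 entries and 52.4% in all promoters. A match describes letters and is no evidence of binding.

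Synaptotagmins are proteins with paired C2 domains, and 8 of the set are forms whose C2 domains bind calcium. Of these, 4 had a positive and 4 a negative log2 fold change, with a median of -0.0043 and 0 called. Syt1, the sensor of fast release, had 179, 198, 207 and 211 FPKM in Kat6a+/-, against 186, 189, 201 and 208 FPKM in WT. The WT range lay within that of Kat6a+/-. Syt7, a high-affinity sensor of asynchronous release and facilitation, averaged 54.8 ± 2.77 FPKM in Kat6a+/- and 52.9 ± 3.89 FPKM in WT (SD, n = 4 each, as in all means below), and Syt3, also of high affinity, 24.2 ± 0.701 FPKM in Kat6a+/- and 24.2 ± 2.44 FPKM in WT. Syt2, the fast sensor of parvalbumin interneurons, had 4.43, 3.73, 4.91 and 4.23 FPKM in Kat6a+/-, against 5.43, 4.32, 4.16 and 4.30 FPKM in WT. Its highest value was WT replicate 1, and the remaining WT values lay inside the Kat6a+/- range.

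The other calcium-binding forms overlapped between the genotypes as well. Syt5, found on dense-core vesicles, averaged 53.4 ± 2.93 FPKM in Kat6a+/- and 53.6 ± 6.17 FPKM in WT. Syt10, known from vesicles that carry IGF-1 in olfactory bulb neurons, had 2.60, 4.33, 3.61 and 3.36 FPKM in Kat6a+/-, against 4.69, 4.99, 3.97 and 2.96 FPKM in WT. Its values interleaved, with the lowest in a Kat6a+/- library and the highest in a WT library. Syt9, a fast sensor in limbic and striatal neurons, averaged 1.08 ± 0.302 FPKM in Kat6a+/- and 1.28 ± 0.126 FPKM in WT, and Syt6 averaged 0.948 ± 0.186 FPKM in Kat6a+/- and 0.968 ± 0.271 FPKM in WT. Both rested on few reads, 58 to 118 reads per library for Syt9 and 58 to 173 reads for Syt6.

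The 5 other synaptotagmins had a median log2 fold change of 0.01, with 3 positive and 2 negative. Syt11, which bears on endocytosis and vesicle recycling, was close to Syt1 in level and averaged 188 ± 5.95 FPKM in Kat6a+/- and 187 ± 7.39 FPKM in WT. Syt4, an activity-regulated form of dense-core vesicles, averaged 34.1 ± 1.94 FPKM in Kat6a+/- and 35.2 ± 2.21 FPKM in WT. Syt13 averaged 69.3 ± 5.71 FPKM in Kat6a+/- and 67.2 ± 1.92 FPKM in WT, and Syt17 13.3 ± 0.849 FPKM in Kat6a+/- and 13.9 ± 1.35 FPKM in WT. Syt12, a vesicle protein needed for presynaptic long-term potentiation at mossy fibre synapses, had 5.26, 4.98, 5.47 and 5.98 FPKM in Kat6a+/-, against 4.14, 5.05, 4.97 and 5.17 FPKM in WT. The lowest value was WT replicate 1, and Kat6a+/- replicate 2 lay inside the WT range. Its log2 fold change was 0.15 ± 0.08 (SE; limma, unadjusted p = 0.0781, adjusted p = 0.9998), with an exact two-sided permutation p of 0.0857, and it was 0.09 without WT replicate 1.

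DOC2 proteins are soluble relatives of the synaptotagmins that sense calcium in spontaneous and asynchronous release. Doc2b had 33.1, 33.8, 36.1 and 34.5 FPKM in Kat6a+/-, against 26.7, 36.4, 30.6 and 32.6 FPKM in WT. All 4 Kat6a+/- values lay within the wider WT range, whose low end was WT replicate 1. The log2 fold change of Doc2b was 0.13 ± 0.08 (SE; limma, adjusted p = 0.9998), and 0.05 without that library. Doc2a, far less abundant, had 2.34, 2.27, 2.62 and 1.88 FPKM in Kat6a+/-, against 3.56, 2.88, 2.23 and 2.32 FPKM in WT. Here WT replicate 1 was the high end, and the log2 fold change was -0.21 ± 0.13 (SE; limma, adjusted p = 0.9998) with all libraries and -0.10 without it. Doc2a shares its locus with Ino80e on the opposite strand, and the labels do not say whether counting used the strand.

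Among 8 SNARE proteins and SNARE regulators, 5 had a positive and 3 a negative log2 fold change, with a median of 0.0085. Vamp2, the synaptobrevin of most central synapses, was the steadiest of the 47 and had 246, 248, 254 and 248 FPKM in Kat6a+/-, against 248, 238, 250.3 and 252 FPKM in WT. The genotypes overlapped and no library stood apart. Vamp1, the synaptobrevin of fast-spiking and motor neurons, averaged 12.01 ± 0.576 FPKM in Kat6a+/- and 11.95 ± 0.364 FPKM in WT. Snap25 averaged 285 ± 12.5 FPKM in Kat6a+/- and 275 ± 13.5 FPKM in WT, a log2 fold change of 0.05 ± 0.05 (SE; limma, adjusted p = 0.9998). Stxbp5 encodes tomosyn, which competes with synaptobrevin for syntaxin, and averaged 10.1 ± 0.543 FPKM in Kat6a+/- and 9.73 ± 0.674 FPKM in WT.

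Complexins bind the assembled SNARE complex. Cplx1, the form of many inhibitory neurons, had 231, 233, 225 and 223 FPKM in Kat6a+/-, against 241, 241, 255 and 228 FPKM in WT. Only WT replicate 4 reached down into the Kat6a+/- range. The log2 fold change of Cplx1 was -0.08 ± 0.04 (SE; limma, unadjusted p = 0.0845, adjusted p = 0.9998), with an exact two-sided permutation p of 0.0857. Cplx2, the form of excitatory neurons, averaged 425 ± 32.2 FPKM in Kat6a+/- and 407 ± 21.6 FPKM in WT. Cplx3, known from retinal ribbon synapses and from deep cortical layers, had 1.47, 1.42, 0.874 and 0.894 FPKM in Kat6a+/-, against 3.77, 0.964, 1.01 and 1.05 FPKM in WT. A single library, WT replicate 1, was 3.43 times the mean of the other 7.

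Stx1a, a plasma membrane syntaxin, had 34.2, 32.01, 31.6 and 34.02 FPKM in Kat6a+/-, against 44.5, 36.02, 35.3 and 33.1 FPKM in WT. The highest value was WT replicate 1, and WT replicate 4 lay inside the Kat6a+/- range. Its log2 fold change was -0.17 ± 0.08 (SE; limma, unadjusted p = 0.0703, adjusted p = 0.9998), with an exact two-sided permutation p of 0.0857. Without WT replicate 1 it was -0.08, with a 95% interval between -0.19 and 0.03. The authors' deposited table, which holds 605 genes with an unadjusted p under 0.05, lists Stx1a with a log2 fold change of -0.18, p = 0.0344 and adjusted p = 0.9998.

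Of the 8 genes of the active zone set 4 had a positive and 4 a negative log2 fold change, with a median of -0.0035. RIM proteins tie RAB3 to Munc13 and to calcium channels. Rims1 averaged 33.3 ± 2.55 FPKM in Kat6a+/- and 34.99 ± 2.10 FPKM in WT, and Rims2 8.21 ± 0.463 FPKM in Kat6a+/- and 8.44 ± 0.271 FPKM in WT. Rims3, a short RIM that holds only the C-terminal C2 domain, had 6.91, 7.01, 6.94 and 5.89 FPKM in Kat6a+/-, against 10.99, 6.80, 8.07 and 7.61 FPKM in WT. WT replicate 1 was the highest of the 8 libraries, WT replicate 2 lay inside the Kat6a+/- range, and Kat6a+/- replicate 4 was the lowest.

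The log2 fold change of Rims3 was -0.28 ± 0.12 (SE; limma, unadjusted p = 0.0453, adjusted p = 0.9998), with an exact two-sided permutation p of 0.114. Without WT replicate 1 it was -0.15, with a 95% interval between -0.33 and 0.02 that takes in 0. This was not particular to that library. The unadjusted limma p of Rims3 was also not under 0.05 without WT replicate 3 or without any single Kat6a+/- library. Nor was it after scaling to a common sum or with no filter on low values. It stayed under 0.05 without WT replicate 2 or WT replicate 4. The authors' deposited table lists Rims3 with a log2 fold change of -0.32, p = 0.00636 and adjusted p = 0.9998. DESeq2 on the recovered reads gave the same log2 fold change of -0.32 but an unadjusted p of 0.0576. The cause of that gap was not tested. That table holds 2 of the 47 genes (4.26%), Rims3 and Stx1a, and 3.07% of all tested genes.

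Munc13 proteins open syntaxin and prime vesicles. Unc13a, the form of most glutamatergic synapses, had 34.3, 34.3, 39.6 and 39.5 FPKM in Kat6a+/-, against 32.2, 36.5, 33.3 and 36.1 FPKM in WT. Kat6a+/- replicates 3 and 4 were above all WT values and replicates 1 and 2 among them. The log2 fold change of Unc13a was 0.10 ± 0.07 (SE; limma, adjusted p = 0.9998), and Colgalt1 overlaps it on the opposite strand. Unc13b averaged 2.35 ± 0.203 FPKM in Kat6a+/- and 2.28 ± 0.0585 FPKM in WT. Unc13c, best known from cerebellar granule cells, had 2.07, 2.40, 1.85 and 1.46 FPKM in Kat6a+/-, against 5.53, 1.79, 2.18 and 2.03 FPKM in WT. WT replicate 1 was 2.81 times the mean of the other 7 libraries.

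Bassoon and piccolo are very large scaffolds of the active zone. Bsn had 39.8, 44.9, 54.3 and 55.1 FPKM in Kat6a+/-, against 43.4, 46.1, 43.1 and 55.4 FPKM in WT, and Pclo had 14.1, 15.8, 20.3 and 20.8 FPKM in Kat6a+/-, against 16.1, 16.5, 15.7 and 19.00 FPKM in WT. In both genes the genotypes overlapped, and replicates 3 and 4 of Kat6a+/- were higher than replicates 1 and 2. For Pclo the difference Kat6a+/- minus WT in mean log2 value was -0.12 in replicates 1 and 2 and 0.24 in replicates 3 and 4, and for Bsn -0.08 and 0.16 in those same pairs. The difference between the pairs was not tested.

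Synapsins tether the reserve pool of vesicles. Syn1 had 169, 177, 173 and 178 FPKM in Kat6a+/-, against 164, 166, 169 and 176 FPKM in WT, with a log2 fold change of 0.05 ± 0.04 (SE; limma, adjusted p = 0.9998). The ranges overlapped over most of their length. Syn2 averaged 110.2 ± 5.58 FPKM in Kat6a+/- and 111 ± 5.53 FPKM in WT, and Syn3, a form linked to young neurons, 1.14 ± 0.0833 FPKM in Kat6a+/- and 1.01 ± 0.256 FPKM in WT, with a log2 fold change of 0.14 ± 0.13 (SE; limma, adjusted p = 0.9998) that ran from 0.04 to 0.22 as single libraries were left out. Each of the 3 synapsin genes overlaps a metalloproteinase inhibitor gene on the opposite strand. Over the 8 libraries Timp1 in Syn1 averaged 0.454 FPKM, Timp4 in Syn2 6.05 FPKM and Timp3 in Syn3 6.79 FPKM, the last above Syn3 itself at 1.08 FPKM. Without stated strand, reads of such pairs cannot be assigned with certainty, which bears most on Syn3.

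The genes of the tetraspan and SV2 proteins of the vesicle membrane overlapped between the genotypes too. Syp, which encodes synaptophysin and binds synaptobrevin, averaged 185 ± 8.24 FPKM in Kat6a+/- and 184 ± 6.74 FPKM in WT. Synpr, which encodes synaptoporin and is rich in mossy fibre terminals, had 12.96, 13.8, 13.00 and 12.9 FPKM in Kat6a+/-, against 13.5, 14.2, 14.3 and 13.6 FPKM in WT. Only Kat6a+/- replicate 2 reached the WT range. The log2 fold change of Synpr was -0.07 ± 0.04 (SE; limma, unadjusted p = 0.111, adjusted p = 0.9998), with an exact two-sided permutation p of 0.0857. Of the synaptogyrins, Syngr1 averaged 106 ± 8.35 FPKM in Kat6a+/- and 109.6 ± 3.88 FPKM in WT and Syngr3 68.1 ± 2.87 FPKM in Kat6a+/- and 71.1 ± 3.04 FPKM in WT, and Syngr1 shares its locus with the ribosomal protein gene Rpl3 on the opposite strand. SV2 proteins help to keep synaptotagmin on the vesicle. Sv2a averaged 108 ± 4.72 FPKM in Kat6a+/- and 108 ± 2.53 FPKM in WT, Sv2b 77.8 ± 5.49 FPKM in Kat6a+/- and 75.8 ± 9.07 FPKM in WT, and Sv2c, known from the basal ganglia, 2.63 ± 0.156 FPKM in Kat6a+/- and 2.80 ± 0.292 FPKM in WT.

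RAB3 GTPases bring vesicles to RIM. All 3 of the set had a negative log2 fold change, with a median of -0.08 and 0 called. Rab3a, the main form, averaged 214 ± 5.07 FPKM in Kat6a+/- and 220.3 ± 8.24 FPKM in WT, and Rab3c averaged 51.6 ± 6.16 FPKM in Kat6a+/- and 54.4 ± 2.95 FPKM in WT. Rab3b, needed for long-term depression at inhibitory terminals of the hippocampus, had 9.64, 9.66, 9.88 and 9.20 FPKM in Kat6a+/-, against 12.2, 10.1, 11.7 and 9.29 FPKM in WT. WT replicates 1, 2 and 3 were above all Kat6a+/- values, and WT replicate 4 among them. Its log2 fold change was -0.16 ± 0.08 (SE; limma, unadjusted p = 0.0778, adjusted p = 0.9998), with an exact two-sided permutation p of 0.171, and -0.10 without WT replicate 1. The summed level of 8 interneuron markers lay between 348 and 375 FPKM in Kat6a+/- and between 369 and 426 FPKM in WT. Most of that sum was Sst, between 208 and 233 FPKM in Kat6a+/- and between 218 and 278 FPKM in WT. Pvalb lay between 21.7 and 24.8 FPKM in Kat6a+/- and between 22.5 and 28.1 FPKM in WT. Lhx6 lay between 3.14 and 3.39 FPKM in Kat6a+/- and between 3.99 and 4.30 FPKM in WT. It was the only one of the 8 without overlap, beside 1.53% of all tested genes with Kat6a+/- below WT. The part of these markers in the values of Rab3b, Cplx1 and Syt2 was not tested.

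The 2 glutamate transporters differed by more than an order of magnitude in level. Slc17a7, which encodes VGLUT1, had 309.8, 301, 332 and 346 FPKM in Kat6a+/-, against 294, 320.5, 307 and 327 FPKM in WT. Slc17a6, which encodes VGLUT2 and marks thalamic and many subcortical neurons, had 3.30, 2.56, 2.52 and 1.72 FPKM in Kat6a+/-, against 4.52, 2.53, 2.51 and 1.51 FPKM in WT. In Slc17a6 replicate 1 was the highest and replicate 4 the lowest in both genotypes. The summed level of 6 thalamic markers lay between 18.7 and 23.2 FPKM in Kat6a+/- and between 22.3 and 26.8 FPKM in WT. In that sum Kat6a+/- replicate 1 was lowest and WT replicate 4 highest. The sum leaned on Calb2, the most abundant of the 6, which was itself highest in WT replicate 4. Calb2 lay between 6.98 and 10.5 FPKM in Kat6a+/- and between 10.6 and 15.2 FPKM in WT. Prkcd and Plekhg1 were instead highest in Kat6a+/- replicate 4, at 6.77 and 3.65 FPKM, and Tcf7l2 in Kat6a+/- replicate 2, at 0.635 FPKM. Of the 6 markers 2 were highest in WT replicate 1, Rora at 5.17 FPKM and Lef1 at 0.231 FPKM. The part of thalamic tissue in the values of Slc17a6 was not tested. Snap91, which encodes the clathrin adaptor AP180 that sets vesicle size and retrieves synaptobrevin, averaged 50.1 ± 2.44 FPKM in Kat6a+/- and 50.2 ± 2.06 FPKM in WT.

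**Figure D3:**
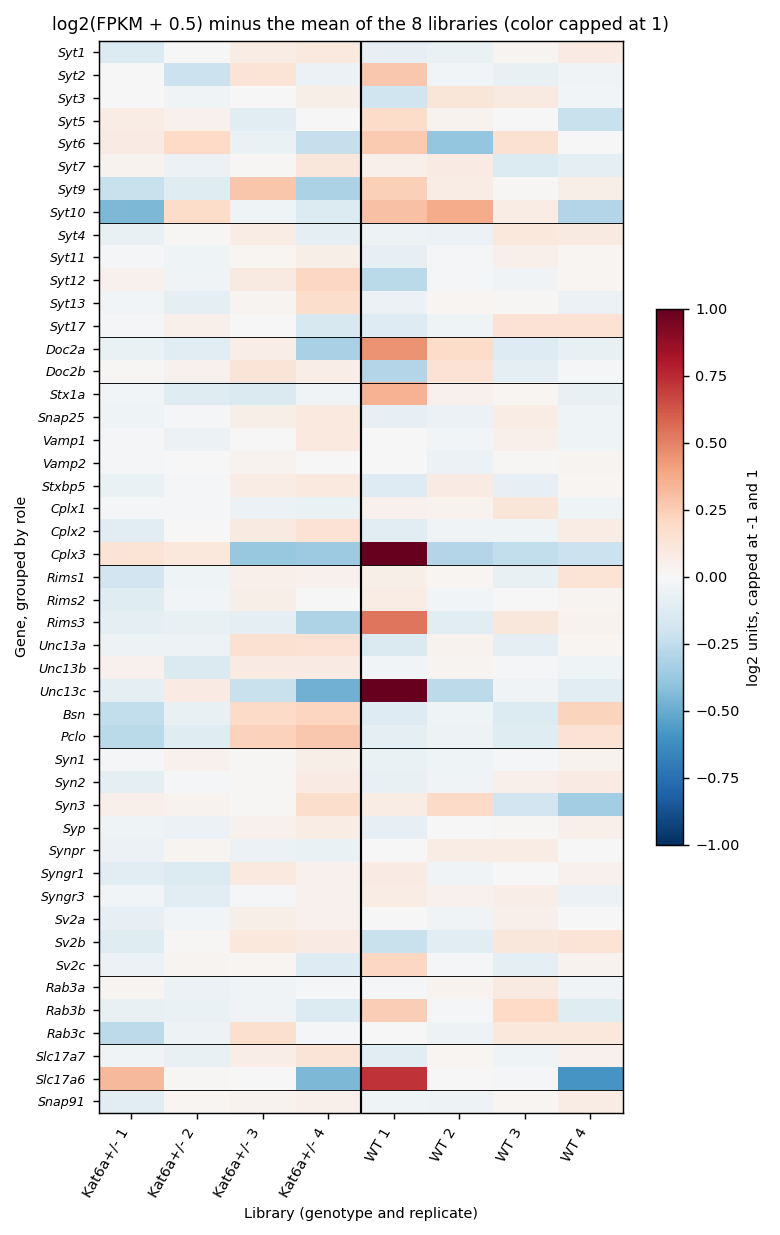
log2(FPKM + 0.5) of each gene minus its mean over the 8 libraries, with genes grouped by role and Kat6a+/- libraries left of WT libraries; colours are capped at -1 and 1. Most cells are pale, and the darkest stand in the column of WT replicate 1, for Cplx3, Unc13c and Slc17a6.

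Several of the larger differences were smaller without WT replicate 1. It was the highest of the 8 libraries in 13 of the 47 genes (27.7%, beside 16.3% of all tested genes). It was the lowest in 12, beside 18.2% of all tested genes. Such counts were not particular to it: Kat6a+/- replicate 4 was the highest in 14 (29.8%, beside 13.8% of all tested genes). Kat6a+/- replicates 1 and 4 were each the lowest in 10, beside 14.6% and 12.9% of all tested genes. Among the 15 genes under 10 FPKM WT replicate 1 was the highest in 9 (60%), beside 17.2% of the tested genes under 10 FPKM. Among the 32 genes of 10 FPKM or more it was the lowest in 10 (31.2%), beside 26.6% of the tested genes at such levels. Relative to the mean of the other 7 libraries it stood at 3.43 times for Cplx3, 2.81 for Unc13c, 1.90 for Slc17a6, 1.56 for Rims3 and 1.51 for Doc2a. At the low end were Syt12 at 0.786 times, Doc2b at 0.788 and Sv2b at 0.834.

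**Figure D4:**
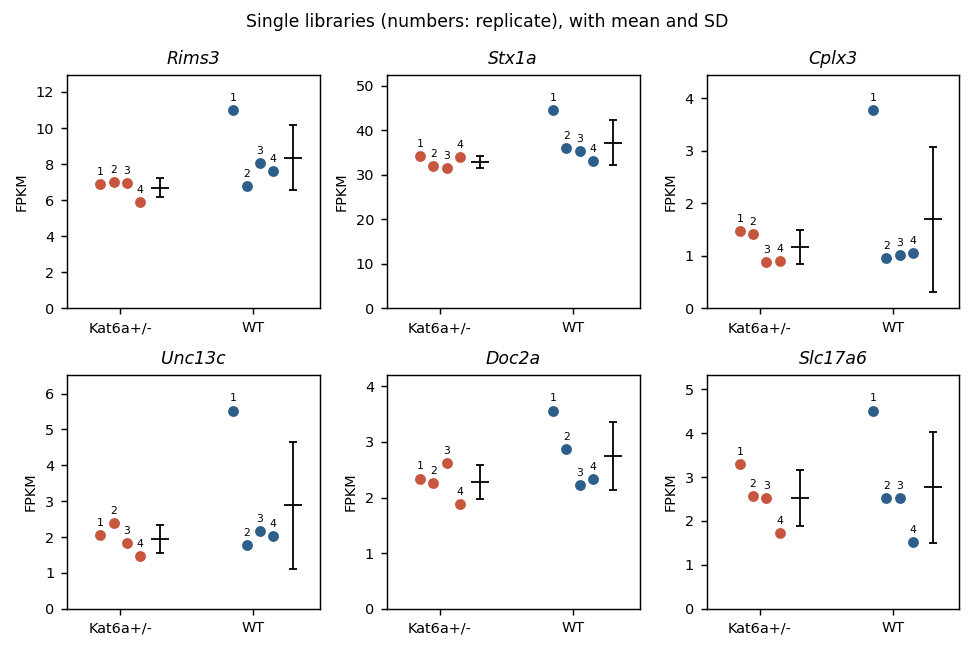
FPKM in each library of 6 genes, numbered by replicate, with the mean and SD of each genotype (n = 4 each). WT replicate 1 is the highest of the 8 libraries in all 6, by most in Cplx3 (3.77 FPKM, against at most 1.05 FPKM in the other WT libraries) and Unc13c (5.53 FPKM, against at most 2.18 FPKM).

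Cplx3, Unc13c and Slc17a6 were singled out after their values were seen. With all 8 libraries the log2 fold change was -0.36 for Unc13c, with a 95% interval between -0.98 and 0.25, and without WT replicate 1 it was -0.05. For Cplx3 it was -0.25 with all libraries, between -0.97 and 0.47, and 0.12 without that library. For Slc17a6 the values were -0.06 with all libraries and 0.17 without. In all, 9 of the 47 genes changed sign without it, Cplx3 and Slc17a6 among them. Of the 15 genes under 10 FPKM, 11 had a negative log2 fold change with all libraries and 7 without WT replicate 1. Over the 47 genes, 21 were then positive and 26 negative.

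**Figure D5:**
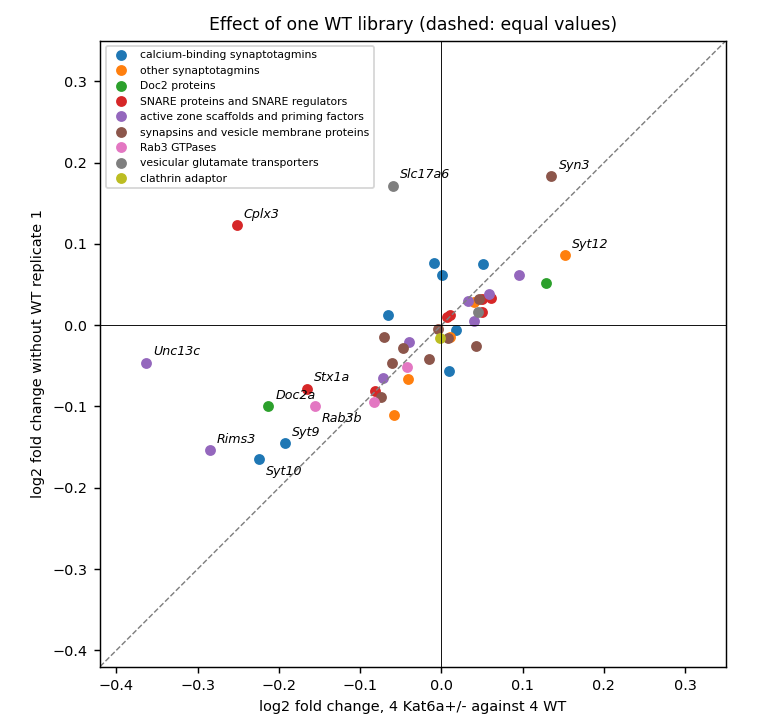
log2 fold change, Kat6a+/- over WT, of the 47 genes with all 8 libraries (x axis) and without WT replicate 1 (y axis), on log2(FPKM + 0.5); the dashed line marks equal values. Most genes lie near the line and near 0, Unc13c lies at -0.36 on x and -0.05 on y, and Cplx3 and Slc17a6 are negative on x and positive on y.

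Single markers of neocortical layers also stood apart in that library. In a list of 12 genes of neocortical layers, drawn up after the values of WT replicate 1 had been seen, 8 were highest there, beside 16.3% of all tested genes. Cux2 of the upper layers measured 2.33, 2.23, 2.17 and 2.26 FPKM in Kat6a+/-, against 4.46, 2.51, 2.21 and 2.39 FPKM in WT. Nxph4 of the deepest layer measured 0.539, 0.571, 0.240 and 0.205 FPKM in Kat6a+/-, against 1.54, 0.543, 0.432 and 0.429 FPKM in WT. In both, WT replicate 1 was above all other libraries. Fezf2 and Rprm were instead highest in Kat6a+/- replicate 1, and Hs3st4, the most abundant of the list, was lowest in WT replicate 1. The summed level of the 12 genes overlapped between the genotypes, lying between 112 and 118 FPKM in Kat6a+/- and between 109.0 and 117 FPKM in WT, and Foxp2 was near 0 in all libraries. Against the mean of the other WT libraries, the summed markers in WT replicate 1 stood at 105% for neocortical layers and 105% for striatum. They stood at 99.5% for thalamus, 79.8% for CA3 and 73.9% for oligodendrocytes. The sums for neocortical layers, striatum and thalamus leaned on Hs3st4, Ppp1r1b and Calb2, at 34.9, 15.2 and 11.8 FPKM in that library. Of the striatum markers, Drd1 and Adora2a were highest there, at 1.40 and 0.436 FPKM, and Drd2 was lowest, at 0.602 FPKM. Of the thalamic markers, Rora and Lef1 were highest there and Plekhg1 was lowest, at 2.95 FPKM. Such sums therefore say little about the rarer markers. The part of these marker differences in the values of Cplx3, Unc13c, Rims3 and Slc17a6 was not tested.

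Replicates 3 and 4 also differed from replicates 1 and 2 in both genotypes, a split that the labels do not call a batch. Syt1, Syt11, Syn2, Syp, Sv2b and Snap91 were higher in all 4 libraries of replicates 3 and 4, and Syt5 and Slc17a6 lower, which makes 6 and 2 of the 47 genes beside 4.22% and 3.59% of all tested genes. Each genotype holds 2 libraries of each kind, so the split is balanced over the comparison.

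The balance between paralogs, which does not depend on scaling between libraries, was compared as 13 shares of summed FPKM. No share passed, with a lowest exact two-sided permutation p of 0.0571 (0.743 adjusted over the 13), where 4 libraries against 4 cannot go below 0.0286. That share was Doc2b in Doc2a and Doc2b together, 93.8% ± 0.718 (SD) in Kat6a+/- and 91.9% ± 2.45 (SD) in WT, higher by 1.92 percentage points in Kat6a+/- and by 0.710 without WT replicate 1. Cplx1 made up 34.97% ± 2.14 (SD) in Kat6a+/- and 37.3% ± 2.07 (SD) in WT of Cplx1 and Cplx2. Rims3 made up 13.9% ± 1.55 (SD) in Kat6a+/- and 16.1% ± 2.82 (SD) in WT of Rims1, Rims2 and Rims3 together, without Rims4. Rab3b made up 3.49% ± 0.105 (SD) in Kat6a+/- and 3.78% ± 0.434 (SD) in WT of Rab3a, Rab3b and Rab3c together. The difference, Kat6a+/- minus WT, was -2.16 percentage points for Rims3 and -0.293 for Rab3b with all libraries, and -0.893 and -0.112 for these 2 without WT replicate 1. Vamp1 made up 4.60% ± 0.218 (SD) in Kat6a+/- and 4.61% ± 0.154 (SD) in WT of Vamp1 and Vamp2 together. Slc17a6 made up 0.786% ± 0.232 (SD) in Kat6a+/- and 0.892% ± 0.444 (SD) in WT of Slc17a6 and Slc17a7 together. The difference in that Slc17a6 share changed sign without WT replicate 1.

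The wider vesicle cycle gave a like result. Of 85 other genes listed for docking, fusion, endocytosis, acidification and transmitter loading, 84 were found and 78 tested, and 0 were called. There 43 had a positive and 35 a negative log2 fold change, with a median of 0.0035, and 2 of the 78 had an unadjusted limma p under 0.05, both lower in Kat6a+/-, beside the 2.63% of all tested genes given above. Slc17a8, which encodes VGLUT3 of some interneurons and serotonergic fibres, had 1.05, 1.499, 0.997 and 1.26 FPKM in Kat6a+/-, against 1.44, 2.09, 1.69 and 1.37 FPKM in WT. Rims4, a short RIM like Rims3, had 14.5, 15.4, 14.8 and 13.5 FPKM in Kat6a+/-, against 21.4, 15.1, 15.6 and 16.8 FPKM in WT. In Rims4, as in Rims3, WT replicate 1 was the highest library, and the groups overlapped in both genes.

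The log2 fold change was -0.33 for Slc17a8 (limma, unadjusted p = 0.0307, adjusted p = 0.9998) and -0.22 for Rims4 (limma, unadjusted p = 0.0489, adjusted p = 0.9998). Without WT replicate 1 it was -0.38 for Slc17a8, with a 95% interval between -0.70 and -0.05 (limma, unadjusted p = 0.0270, adjusted p = 0.9999). For Rims4 it was then -0.11, with a 95% interval between -0.24 and 0.02. Syngr2, a synaptogyrin found mostly outside neurons, was the one of the 78 whose 4 Kat6a+/- values all lay below the 4 WT values, beside 1.53% of all tested genes. It averaged 2.95 ± 0.139 FPKM in Kat6a+/- and 3.36 ± 0.402 FPKM in WT, with a log2 fold change of -0.16 (limma, adjusted p = 0.9998). Without WT replicate 1 the log2 fold change of Syngr2 was -0.19, with a 95% interval between -0.38 and -0.0005 (limma, adjusted p = 0.9999). The positive values nearest to the threshold were 0.08 for Napa, which encodes the SNARE adaptor alpha-SNAP, 0.11 for the endocytic scaffold gene Itsn2 and 0.19 for Vamp8, an endosomal SNARE gene.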

How the data were processed

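Per the labels' protocols, Trizol and DNase gave total RNA of mouse hippocampus, and the library kit was NEBNext Ultra II. The submitters' processing notes name STAR 2.5, HTSeq, DESeq2 and the build GRCm38 (mm10), with no annotation release and no word on strand. The deposited table of all genes gives FPKM per gene and library, per the file headers. A second deposited table, of 605 genes, gives the authors' read counts, a normalised signal, their log2 fold change and their p-values. Multiplied by gene length and 1 constant per library, 100% of the deposited FPKM values came out as whole reads within 0.01, equal to the deposited counts where both exist.

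The 14159 genes that averaged 0.5 FPKM or more were fitted in limma 3.58.1 under R 4.3.3. The scale was log2(FPKM + 0.5), with a prior variance that followed mean expression, genotype as the one term, two-sided tests and Benjamini-Hochberg adjustment over all of them. The pseudocount makes fold changes of low genes too small. The recovered reads were tested with limma-voom, edgeR 4.0.16 (quasi-likelihood) and DESeq2 1.42.0. Exact permutation tests ran over all 70 assignments of the libraries. The limma, voom, edgeR and DESeq2 steps were tested on simulated data.

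The 47 genes and all gene lists were chosen with earlier results of these data known. Fold changes with SE and p are given for the 6 genes with the smallest unadjusted limma p in each direction, and of the other vesicle cycle genes for 3 in each direction. Replicate numbers were not treated as pairs. Alternatives were the pseudocount, the filter on low values, scaling to a common sum, a replicate block, a term for replicates 1 and 2 against 3 and 4, each library left out, and the count tests. Arms of 4 libraries limit the precision, and the deepest library had 27875310 reads and the shallowest 16462428.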

Additional observations from a re-analysis of the deposited data

Results flagged for a closer look

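A single library stood far from the other 3 of its genotype in 6 of the 94 gene and genotype groups examined and in 4 of the 26 groups of paralog shares, by Dixon's criterion for 4 samples (0.829). Chance gives about 1 in 20 groups, and groups of related genes and shares are not independent. WT replicate 1 accounts for 6 of the 10.

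The high values of WT replicate 1 were 5.53 FPKM for Unc13c, 3.77 FPKM for Cplx3 and 5.43 FPKM for Syt2. The shares that moved with them were Unc13c at 13.8% of Unc13a, Unc13b and Unc13c together and Cplx3 at 0.599% of Cplx1, Cplx2 and Cplx3 together. In that library Doc2b was low, at 88.2% of Doc2a and Doc2b together. Of the 12 neocortical layer markers 8 were also highest in that library, beside 16.3% of all tested genes. That list was drawn up after the values of WT replicate 1 had been seen, so the count describes only. Fezf2 and Rprm were highest in Kat6a+/- replicate 1, and Hs3st4 was lowest in WT replicate 1. The part of these markers was not tested.

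Of the Kat6a+/- libraries, replicate 4 was low in Rims3 at 5.89 FPKM, and replicate 2 was low in Unc13b at 2.04 FPKM and high in Synpr at 13.8 FPKM. WT replicate 4 was low in the share of Synpr in Syp and Synpr, at 6.66%.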

How the results depend on the processing

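The count of the 47 genes called stayed at 0 under all 18 alternatives, as did that of the other vesicle cycle genes. Over all tested genes DESeq2 on the recovered reads called 5, none of them among the 47, and leaving out each library in turn called 0 to 1. The median log2 fold change of the 47 ranged from -0.0187 to 0.0119 as libraries were left out. The 12 genes given with a fold change and its SE kept their sign in all 18 settings, with adjusted p between 0.883 and 0.9999, and Rims3 ranged from -0.37 to -0.15. Of the 3 genes chosen after their values were seen, Cplx3 and Slc17a6 changed sign without WT replicate 1 and Unc13c did not. The count at an unadjusted p under 0.05 ranged from 0 to 5 of the 47.

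Paralog shares, as differences in percentage points, changed sign as libraries were left out for Vamp1 (-0.116 to 0.0453), Slc17a6 (-0.249 to 0.102), Syt2 (-0.238 to 0.0381), Cplx3 (-0.123 to 0.0266) and Syngr3 (-0.878 to 0.392). For Slc17a6, Syt2 and Cplx3 this came with the removal of WT replicate 1 alone. The cause was not tested.

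The deviations of libraries with the same replicate number correlated at 0.166, -0.0749, 0.0652 and 0.0051, in the order of replicates 1 to 4. Those of libraries with different numbers correlated between -0.135 and 0.0909. Only replicate 1 lay above that range, so the numbers gave no steady pairing. With a replicate block 0 of the 47 genes and 0 of all tested genes were called, 3 of the 47 (Stx1a, Rab3b and Rims3) had an unadjusted limma p under 0.05 (6.38%, beside 5.44% of all tested genes), and the median was again -0.0048. The precision of genes under 10 FPKM also varied with single libraries: the SE of the log2 fold change was 0.32 for Cplx3 and 0.27 for Unc13c with all libraries, and 0.15 and 0.13 without WT replicate 1.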
